A study of Mus musculus with 12 samples.

Results

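The genes described here are 49 mouse genes of DNA replication and S phase, chosen by name for their roles: the licensing factors and the MCM helicase, the helicase activators, the sliding clamp and its loader, the DNA polymerases and primase, the single-strand binding and Okazaki-fragment enzymes, the suppliers of nucleotides with the uracil remover, the E2F and cyclin E regulators of S-phase entry, and chromatin assembly factor 1. All 49 were found by symbol among the 55335 genes of the deposited count table, and all 49 passed the filter on low counts, with at least 346 counts in every library. They were read in 12 RNA-sequencing libraries of PYMT-R221A cells, an established line from mammary tumours of mice that carry the polyoma middle T antigen under the mouse mammary tumour virus promoter. The groups of 3 libraries were cells treated with KCC-07 at 40 µM, their control cells, which the series' design text calls wild type, cells transfected with siRNA against Mbd2 (siMBD2), and cells transfected with a scramble siRNA. The series title presents KCC-07 as an inhibitor of the MBD2 pathway, and MBD2 is a protein that binds methylated DNA. The series thus asks what the compound and the knockdown do to these cells. The labels call the replicates biological and number them 1 to 3, and they name no vehicle and no duration of treatment. All 4 groups are 1 line grown in culture, and in bulk RNA fewer cells in S phase and less RNA per S-phase cell cannot be told apart.

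DNA replication begins with licensing, when the origin recognition complex (Orc proteins), Cdc6 and Cdt1 load the MCM hexamer onto DNA in G1, while geminin (Gmnn) holds Cdt1 back. In S phase, Cdc45 and the GINS complex turn the MCM ring into an active helicase, replication factor C loads the PCNA clamp, and primase and polymerases alpha, delta and epsilon copy the strands. Most of these genes are targets of the E2F transcription factors, which the retinoblastoma protein restrains until cyclin E and CDK2, together with cyclin D and its kinases, release them.

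The promoter windows of these genes were searched for letters of the E2F site. RefSeq promoter windows on GRCm38.p6, from 250 bases before to 50 after a start, were matched by symbol for 40 of the 49 genes. The words TTTCCCGC, TTTGGCGC, TTTCGCGC and TTTGCCGC, 4 spellings of the E2F site read on both strands, were found in 14 of those 40 genes (35%), against 4.65% of the tested genes with a window and 2.6% of all genes with a window. The 14 were Cdc6, Cdt1, E2f2, Gins3, Lig1, Mcm3, Mcm5, Mcm6, Mcm7, Orc1, Pola1, Pold1, Pole2 and Rfc3. CCAAT, the NF-Y box, was in the windows of 24 of the 40 genes (60%), against 43.6% of the tested genes and 41.1% of all genes. TTTGAA, a core of the cell-cycle homology region found in promoters of late cell-cycle genes, was in 6 of 40 (15%), against 14.3% and 20.2%. A match is a stretch of letters, read on both strands, and not a measured site. Stretches of 8 windows are printed 5′ to 3′ on the strand of the gene, with E2F words in capitals, all from the 14 genes with a word. They belong to some of the genes whose values the sections below turn on (E2f2, Mcm3, Cdt1, Rfc3). The others belong to genes of the MCM ring and of the complex that loads it. E2f1, Dut, Ung, Tyms and Rrm2, on which the sections also turn, were not among the 14. The first 3 stretches lie downstream of the start, at chr4:136172294-136172323 on the plus strand, chr1:20820263-20820292 on the minus strand and chr8:122568035-122568064 on the plus strand.
E2f2: cgaatttggcggcatatagTTTGGCGCtaa
Mcm3: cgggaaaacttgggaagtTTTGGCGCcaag
Cdt1: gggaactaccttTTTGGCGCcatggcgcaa
All 3 carry the same word, TTTGGCGC, and the Mcm3 stretch begins inside another word that is not in capitals because it is incomplete. The other 5 stretches end at the base before the start, at chr5:151651209-151651378 and chr1:128359706-128359875 and chr5:138171884-138172053 on the minus strand, and at chr4:108579284-108579453 and chr8:75109339-75109508 on the plus strand. A word on the opposite strand appears as its reverse complement, and in Mcm5 and Mcm6 words on opposite strands overlap.
Rfc3: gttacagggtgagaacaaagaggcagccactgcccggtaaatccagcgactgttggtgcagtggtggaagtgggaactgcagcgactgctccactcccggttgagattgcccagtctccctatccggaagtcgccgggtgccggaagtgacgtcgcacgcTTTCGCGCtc
Orc1: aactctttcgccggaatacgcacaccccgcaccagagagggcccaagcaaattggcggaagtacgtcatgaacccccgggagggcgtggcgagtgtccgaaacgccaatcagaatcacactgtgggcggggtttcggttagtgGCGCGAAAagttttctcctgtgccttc
Mcm5: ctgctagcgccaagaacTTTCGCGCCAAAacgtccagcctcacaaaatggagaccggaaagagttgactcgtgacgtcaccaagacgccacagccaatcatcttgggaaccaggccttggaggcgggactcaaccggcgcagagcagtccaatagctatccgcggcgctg
Mcm6: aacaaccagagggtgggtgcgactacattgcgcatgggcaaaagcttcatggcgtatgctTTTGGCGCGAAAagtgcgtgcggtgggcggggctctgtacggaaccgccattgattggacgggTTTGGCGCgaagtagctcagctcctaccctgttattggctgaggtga
Mcm7: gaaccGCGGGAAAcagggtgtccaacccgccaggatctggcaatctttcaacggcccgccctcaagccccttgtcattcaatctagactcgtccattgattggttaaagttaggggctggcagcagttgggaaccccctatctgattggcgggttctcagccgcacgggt
Mcm6 held the most words of these stretches, with 3, and Mcm5 held 2.

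Deposited counts summed to 25.8 to 29.2 M per library with KCC-07, 29.8 to 34.0 M in control, 29.7 to 31.7 M with siMBD2 and 26.1 to 32.9 M with scramble siRNA. Levels are given as CPM, counts relative to the library's total, scaled by TMM, a normalization that assumes most genes do not change. Only the sums and the ranges of the cell type markers are CPM without the TMM scaling. The targeted gene checked the siRNA labels: Mbd2 stood at 35.7, 34.7 and 30.6 CPM with siMBD2 and 75.8, 83.2 and 72.5 CPM with scramble siRNA, a log2 fold change of -1.20 (SE 0.0867, adjusted p = 1.97e-04) in edgeR's quasi-likelihood test. Mbd2 itself was at 75.1, 72.8 and 77.1 CPM with KCC-07 and 72.9, 75.9 and 76.5 CPM in control. The replicate 3 libraries stood apart within each group, and mitochondrial transcripts took 3.90% of counts in KCC-07 replicate 3 and 2.81% in control replicate 3, against 1.45% to 1.82% in the other libraries of those groups. The 8 mammary epithelial markers were all detected, with a summed level of 1683 to 1957 CPM with KCC-07, 1630.5 to 1786 CPM in control, 1735 to 1881 CPM with siMBD2 and 1811 to 1897 CPM with scramble siRNA. Of the other cell types' defining markers, Thy1, Adgre1, Cdh5 and Cldn5 were at 0 in all 12 libraries, while Pdgfra stood at 72.5 to 161 CPM and Col1a1 at 18.5 to 52.3 CPM. Pdgfrb, Csf1r, Cd68 and Pecam1 were also detected in every library, at 17.5 CPM or less.

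The genes covered a wide range of levels per length. Per kilobase of the coding transcript, thymidine kinase Tk1 and the clamp Pcna led in control cells, at 280.1 and 267 CPM per kb, followed by the ribonucleotide reductase subunit Rrm2 at 106 and Mcm6 at 102 CPM per kb. The lowest were E2f2 at 2.88, Gins2 at 5.49 and Gins3 at 6.37 CPM per kb. The reductase subunits Rrm1 and Rrm2 stood at 94.8 and 106 CPM per kb. In polymerase delta, the catalytic subunit Pold1 stood at 18.6 and the second subunit Pold2 at 80.3 CPM per kb, and in polymerase epsilon Pole stood at 11.2 and Pole2 at 12.1 CPM per kb. Strand-specific counting is not stated for these data, so the 15 genes whose exons overlap a gene on the opposite strand are uncertain: Mcm7, Orc1, Orc2, Orc6, Cdc45, Gins2, Rfc2, Rfc4, Rfc5, Pole, Fen1, Lig1, Tk1, Ccne2 and Chaf1a. Whatever the strand setting, exons of Mcm7 (Mir25 and Mir93), Pole2 (Gm49384) and Rpa1 (Gm47300) overlap genes on the same strand. Mcm7 and Pcna also have a near-identical copy elsewhere in the genome that could take or give reads.

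With KCC-07, the transcription factors E2f1 and E2f2 rose while most genes of the replication machinery sat slightly below control. Of the 49 genes, 2 (4.08%) passed an adjusted p of 0.05 (Benjamini-Hochberg, over all 14935 genes tested), both higher. This stood beside 5.65% of all genes tested in either direction and 3.58% higher. The share of members called was thus near that of all genes. No member was lower at that threshold, against 2.08% of all genes. DESeq2 also called both E2f genes higher, beside 7.26% of all genes, and it called Dut lower, beside 5.28%. With the 6 libraries of this comparison alone edgeR called no member (0.00688% of all genes, 1 gene), and with those libraries and the block it called E2f2 as higher, beside 2.27% of all genes. In all, 35 of the 49 log2 fold changes were below 0, against 48.2% of all genes, and their median was -0.17, against 0.02 for all genes. The replicate number was also entered as a block, which compares each treated library with its same-numbered control. With it 10 members passed as lower (20.4%), beside 9% of all genes. The same E2f genes passed as higher (4.08%), beside 12.8% of all genes. Correlations between libraries do not show that replicates 1 and 2 match by number. All KCC-07 libraries lay above all control libraries for 2 members, the E2f genes, and below them for 4, Dut, Ung, Rrm1 and Rpa1, beside 12.3% and 10.6% of all genes. Each KCC-07 library was below its same-numbered control in 24 of the 49, beside 23% of all genes.

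**Figure D1:**
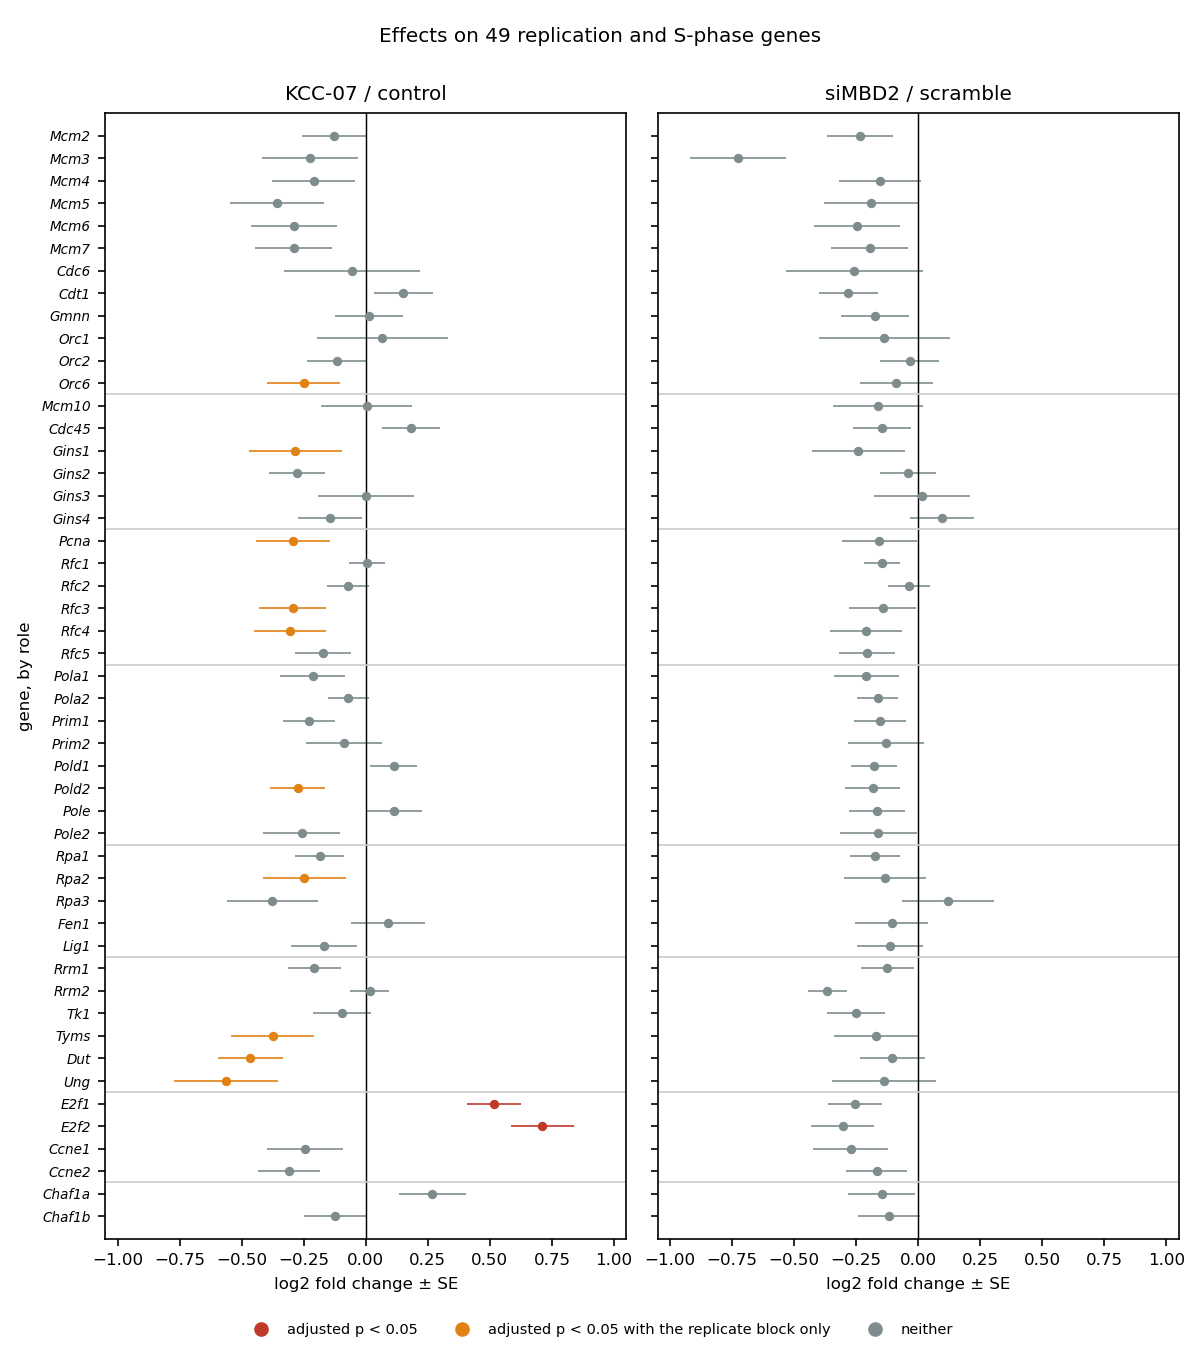
Log2 fold change (x axis) with its standard error for each of the 49 genes (rows, grouped by role), for KCC-07 over control (left) and siMBD2 over scramble (right), from edgeR over all 12 libraries. Red marks an adjusted p under 0.05, orange an adjusted p under 0.05 with the replicate block only, and grey neither. E2f1 and E2f2 are the red points on the left, and on the right 46 of 49 points lie below 0.

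E2f1 and E2f2, activator E2Fs that drive S-phase genes, were the 2 genes called higher. E2f2 stood at 21.7, 21.04 and 24.4 CPM with KCC-07 and 11.97, 14.4 and 14.6 CPM in control. Every treated library was above every control library, and the log2 fold change was 0.71 (SE 0.127, adjusted p = 0.0115), or 1.64-fold. E2f1 stood at 144, 142 and 153 CPM with KCC-07 and 89.1, 120.4 and 97.9 CPM in control. These groups did not overlap either, and the log2 fold change was 0.52 (SE 0.110, adjusted p = 0.0215), or 1.43-fold. Leaving out control replicate 1, the library with the lowest E2f1, moved its adjusted p to 0.0653, and leaving out any one of the other 5 libraries kept the call. The cyclins E, partners of CDK2, did not pass the test: Ccne1 averaged 22.8 ± 2.62 CPM with KCC-07 and 27.0 ± 6.15 CPM in control (SD, n = 3 each), and Ccne2 averaged 37.7 ± 5.01 CPM with KCC-07 and 46.8 ± 7.75 CPM in control. Their log2 fold changes were -0.25 and -0.31, with overlapping libraries and adjusted p of 0.340 and 0.151, and without the replicate 3 libraries Ccne1 was at 0.02.

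Among the genes of nucleotide supply, the values below control were largest for Ung, Dut and Tyms, enzymes that keep or take uracil out of DNA. Dut, the dUTPase that removes dUTP from the pool, stood at 64.0, 64.6 and 46.4 CPM with KCC-07 and 91.4, 81.3 and 69.2 CPM in control. All treated libraries were below all control libraries, and the log2 fold change was -0.47 (SE 0.131, adjusted p = 0.0583), just outside the threshold. With the replicate block the adjusted p was 0.00484, and in DESeq2 it was 0.0157. Ung, the uracil DNA glycosylase that excises uracil once it is incorporated, stood at 35.4, 35.9 and 17.8 CPM with KCC-07 and 47.1, 46.0 and 38.8 CPM in control. Its groups did not overlap, KCC-07 replicate 3 was far below the rest, and the log2 fold change was -0.56 (SE 0.210, adjusted p = 0.126), with an adjusted p of 0.0171 with the block. Tyms, which makes the dTMP that competes with dUMP, stood at 91.4, 97.7 and 56.5 CPM with KCC-07 and 116, 109.7 and 93.6 CPM in control. KCC-07 replicate 2 lay above control replicate 3, and the log2 fold change was -0.38 (SE 0.169, adjusted p = 0.192), with an adjusted p of 0.0250 with the block. Of the reductase subunits, Rrm1 was lower in every treated library than in any control library, at -0.21 (adjusted p = 0.255), whereas Rrm2 was at 0.02 and Tk1, which salvages thymidine, at -0.10, both with overlapping libraries.

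**Figure D2:**
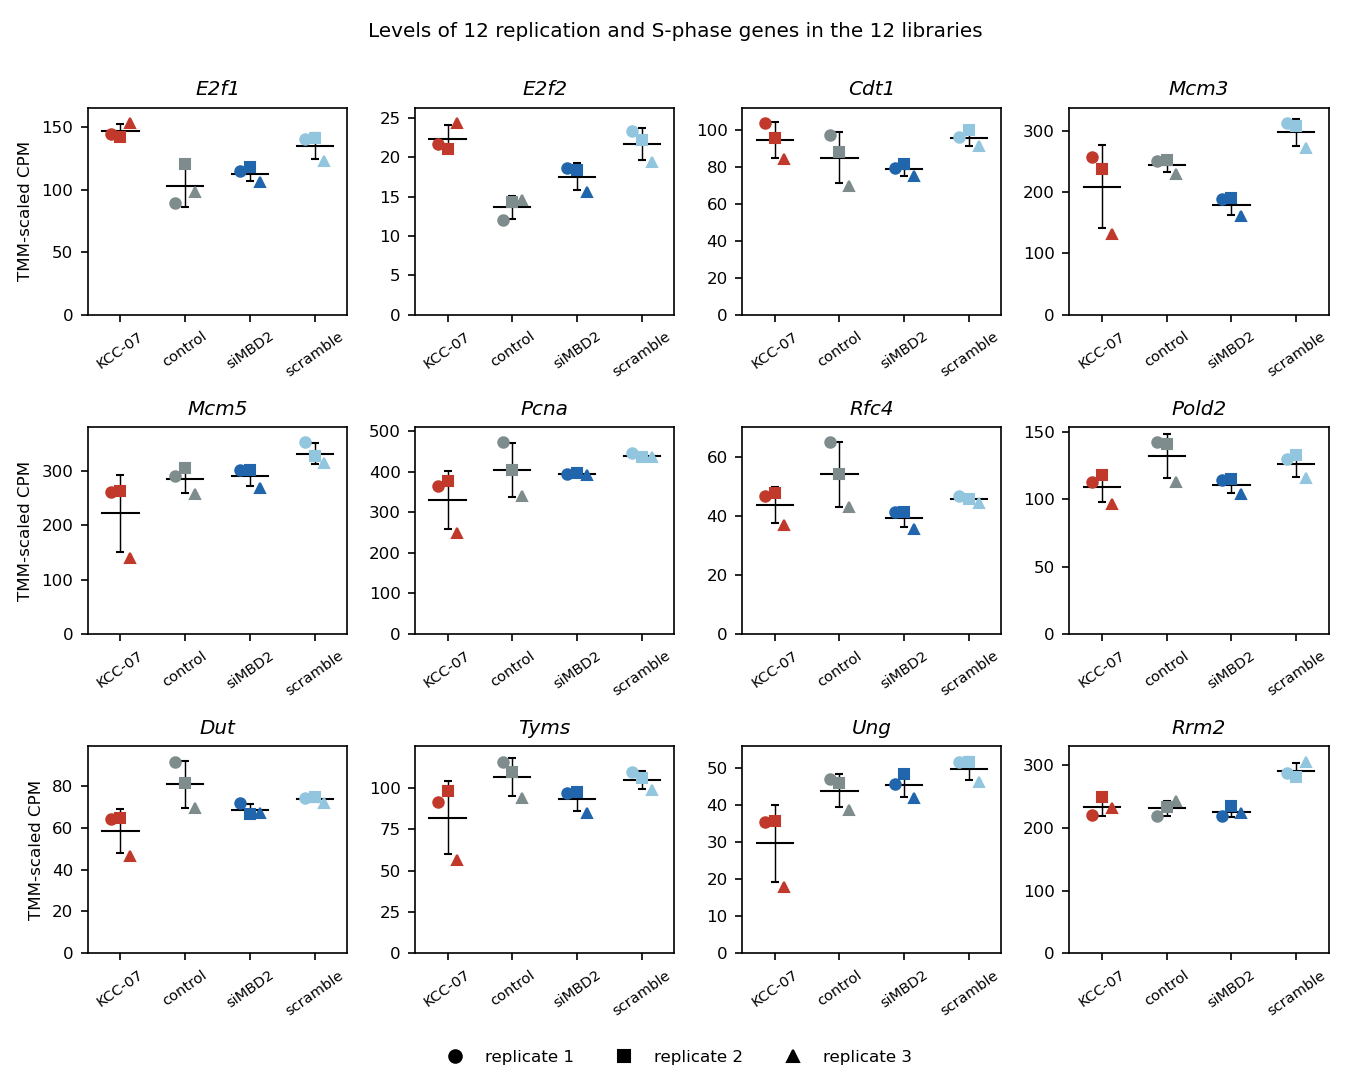
TMM-scaled CPM (y axis, from 0) of 12 of the genes in each of the 12 libraries, by group (x axis). Points are libraries, with the replicate number as the symbol, and lines and bars give the mean and SD of 3 libraries. The KCC-07 points of E2f1 and E2f2 lie above all control points, those of Dut and Ung lie below all control points, and the siMBD2 points of Mcm3 and Rrm2 lie below all scramble points.

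Of the clamp and clamp loader, Pcna, Rfc3 and Rfc4 passed as lower with the replicate block and not in the fit without it. Pcna stood at 366, 377 and 248 CPM with KCC-07 and 472, 403 and 339 CPM in control, and each treated library was below its same-numbered control while the groups overlapped. The log2 fold change was -0.29 (SE 0.151, adjusted p = 0.248), with an adjusted p of 0.0291 with the block. Rfc3 stood at 62.6, 63.4 and 45.8 CPM with KCC-07 and 81.7, 70.0 and 59.3 CPM in control, with the groups overlapping only through control replicate 3. Its log2 fold change was -0.30 (SE 0.136, adjusted p = 0.202), with an adjusted p of 0.0230 with the block. Rfc4 stood at 46.6, 47.6 and 36.8 CPM with KCC-07 and 64.9, 54.0 and 43.1 CPM in control, where control replicate 3 again lay among the treated libraries. It gave -0.31 (SE 0.145, adjusted p = 0.212), with 0.0341 as its adjusted p with the block. Of the other loader subunits, Rfc5 was at -0.17, Rfc2 at -0.07 and Rfc1, the large subunit, at 0.00, none past the threshold in either fit.

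The polymerase and primase genes held 1 gene past the threshold with the block. Pold2, the second subunit of the lagging-strand polymerase delta, stood at 113, 118 and 96.3 CPM with KCC-07 and 142, 141 and 113 CPM in control. Control replicate 3 overlapped the treated libraries, the log2 fold change was -0.28 (SE 0.111, adjusted p = 0.154), and the adjusted p was 0.0172 with the block. The catalytic subunits Pold1 and Pole were above 0 and Pola1 was below, none past the threshold: Pold1 was at 0.11 and Pole at 0.11, while Pola1 was at -0.21. The accessory and primase subunits Pola2, Prim1, Prim2 and Pole2 lay at -0.07, -0.23, -0.09 and -0.26, and none of these passed in either fit. Among the single-strand binding and Okazaki genes, Rpa2 stood at 56.6, 55.7 and 36.4 CPM with KCC-07 and 66.1, 60.8 and 49.7 CPM in control, a log2 fold change of -0.25 (SE 0.166, adjusted p = 0.378) and an adjusted p of 0.0429 with the block. The small subunit Rpa3 stood at 15.5, 17.3 and 18.5 CPM with KCC-07 and 27.0, 23.3 and 16.4 CPM in control, so that replicates 1 and 2 were lower with the compound and replicate 3 was not. Its log2 fold change was -0.38 (SE 0.183, adjusted p = 0.221). The large subunit Rpa1 was lower in every treated library than in any control library, at -0.19 (adjusted p = 0.265), and the flap nuclease Fen1 and the ligase Lig1 were at 0.09 and -0.17 with overlapping libraries.

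No licensing gene passed without the block, and the values differed between replicates. The MCM hexamer, summed over Mcm2 to Mcm7, stood at 1495, 1439 and 863 CPM with KCC-07 and 1561, 1565 and 1409 CPM in control. KCC-07 replicate 3 was alone in its low level, and KCC-07 replicates 1 and 2 lay between control replicate 3 and control replicates 1 and 2. Mcm5, the licensing gene with the smallest p, stood at 262, 264 and 141 CPM with KCC-07 and 291, 306 and 258 CPM in control, a log2 fold change of -0.36 (SE 0.189, adjusted p = 0.261). Over same-numbered pairs the 6 MCM genes ran from -0.18 to 0.12 in pair 1, from -0.22 to -0.05 in pair 2 and from -0.87 to -0.50 in pair 3. In the fit, Mcm2, Mcm3, Mcm4, Mcm6 and Mcm7 lay between -0.29 and -0.13, with adjusted p of 0.262 or more. Cdc6, the loader ATPase, and Orc1 also had their lowest value in KCC-07 replicate 3 and were near 0 in the fit, at -0.05 and 0.07. Orc6 was the 1 licensing gene past the threshold with the block: it stood at 54.0, 49.4 and 38.1 CPM with KCC-07 and 65.6, 57.0 and 45.8 CPM in control, each treated library below its same-numbered control. It gave -0.25 (SE 0.148, adjusted p = 0.315) and an adjusted p of 0.0281 with the block. Orc2 was at -0.12, geminin at 0.01 and Cdt1 at 0.15, none past the threshold.

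Of the helicase activators, the GINS subunit Gins1 passed with the block. It stood at 39.0, 33.9 and 24.6 CPM with KCC-07 and 46.8, 43.7 and 28.4 CPM in control, with each treated library below its same-numbered control, a log2 fold change of -0.28 (SE 0.188, adjusted p = 0.369) and an adjusted p of 0.0292 with the block. Gins2 stood at 17.3, 19.9 and 15.8 CPM with KCC-07 and 23.2, 21.5 and 19.5 CPM in control, overlapping through KCC-07 replicate 2, at -0.28 (SE 0.112, adjusted p = 0.155). Gins3 and Gins4 were at 0.00 and -0.14, Mcm10 at 0.00, and Cdc45, which joins GINS on the helicase, at 0.18, higher in each same-numbered pair but not past the threshold. The subunits of chromatin assembly factor 1, which places histones behind the fork, did not pass: Chaf1a stood at 170.1, 173 and 167 CPM with KCC-07 and 107, 144 and 174 CPM in control, at 0.27 (SE 0.135, adjusted p = 0.242), and Chaf1b was at -0.12. The control libraries of Chaf1a spread more widely than the treated ones, and its exons overlap Ubxn6 over 4648 bases on the opposite strand.

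**Figure D3:**
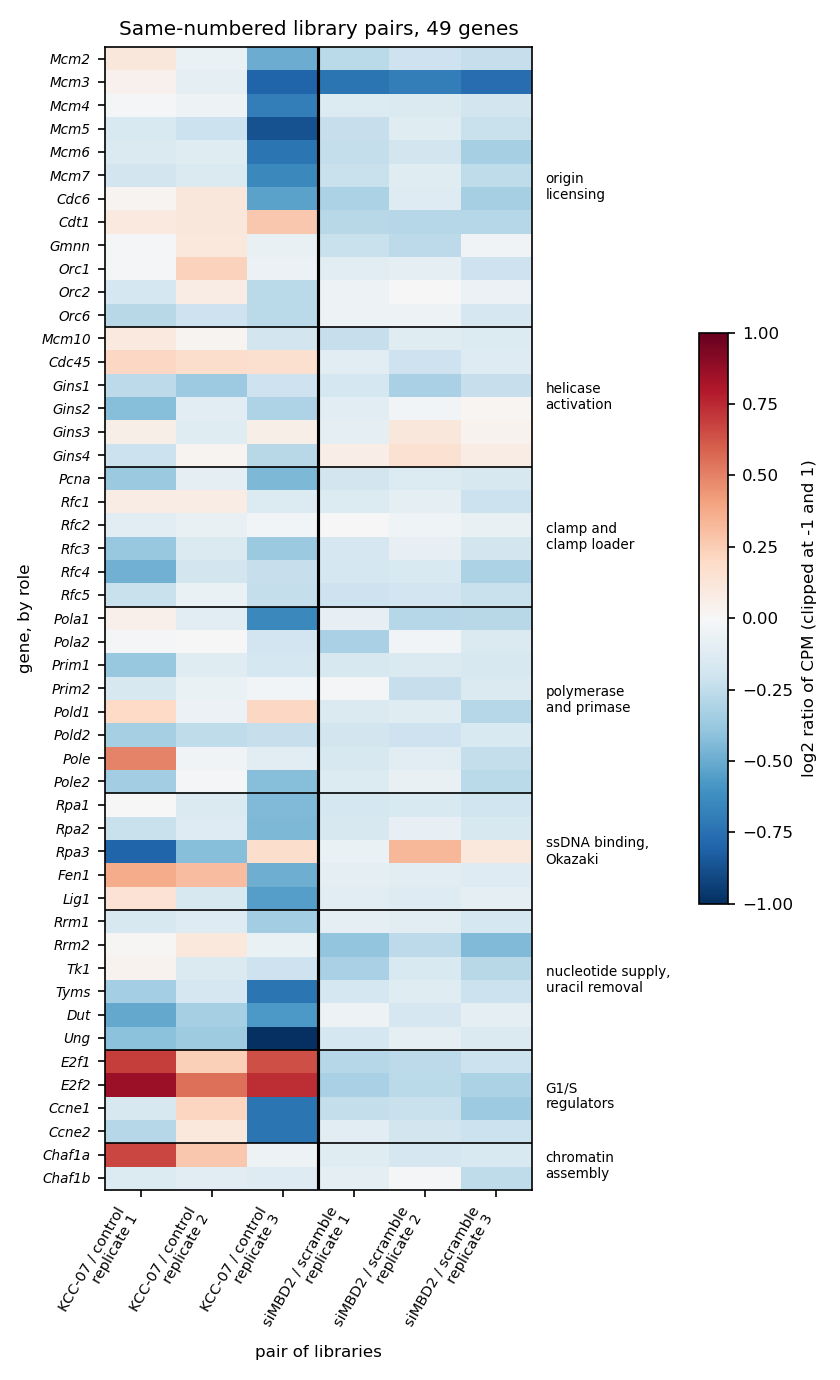
Log2 ratio of CPM in each same-numbered pair of libraries (columns) for the 49 genes (rows, grouped by role), KCC-07 over control in the 3 columns on the left and siMBD2 over scramble in the 3 on the right. Colours are clipped at -1 and 1, and 1 value, Ung in KCC-07 pair 3 at -1.12, lies past the clip. The MCM genes are dark blue in KCC-07 pair 3 and pale in pairs 1 and 2, and the siMBD2 columns are mostly pale blue with a dark Mcm3.

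The genes differed between replicates as well as between treatments. Within groups, replicate 3 was lower than replicates 1 and 2 for 16 of the 49 genes by the test (32.7%) and higher for none, beside 5.6% of all genes lower and 6.41% higher. That test pooled both arms, although the library names number the third replicate 4 in the KCC-07 arm and 3 in the siRNA arm, and whether the arms share a batch is not given in the sources used here. Within single groups, replicate 3 was the lowest of the 3 libraries for 43 of the genes with KCC-07, 34 in control, 41 with siMBD2 and 39 with scramble siRNA. The shares of all genes for these counts are not given here, so they cannot be read as particular to the members. The pooled estimate was below 0 for 43 of the 49 (49.5% of all genes), with a median of -0.21 against a median near 0 for all genes. All 12 licensing genes had estimates below 0, from -0.51 for Cdc6 to -0.21 for Gmnn, and the 4 regulators had none called, with a median of -0.01. The lowest value of all 12 libraries fell in KCC-07 replicate 3 for 34 of the 49 genes, whose share of all genes is likewise not given. That library stood apart from the other KCC-07 libraries over all genes, and it held the highest share of mitochondrial transcripts. The part of this library's other differences in the KCC-07 values was not tested. Without the 4 libraries of replicate 3, the members' median for KCC-07 over control was -0.07, and 13 members passed, 4 higher and 9 lower, beside 15.1% and 10.5% of all genes. The 9 lower genes were Dut, Gins1, Pold2, Prim1, Rfc3, Rfc4, Rpa3, Tyms and Ung, and the 4 higher were Chaf1a, E2f1, E2f2 and Fen1. Without KCC-07 replicate 3 alone the median was -0.02, and the calls were again E2f1 and E2f2. The share of all genes called in that fit is not given here. Without control replicate 3 alone 8 members passed, 3 higher and 5 lower, beside 7.79% of all genes higher and 6.07% lower, and without control replicate 1 alone only E2f2 did, beside 1.52% of all genes higher.

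**Figure D4:**
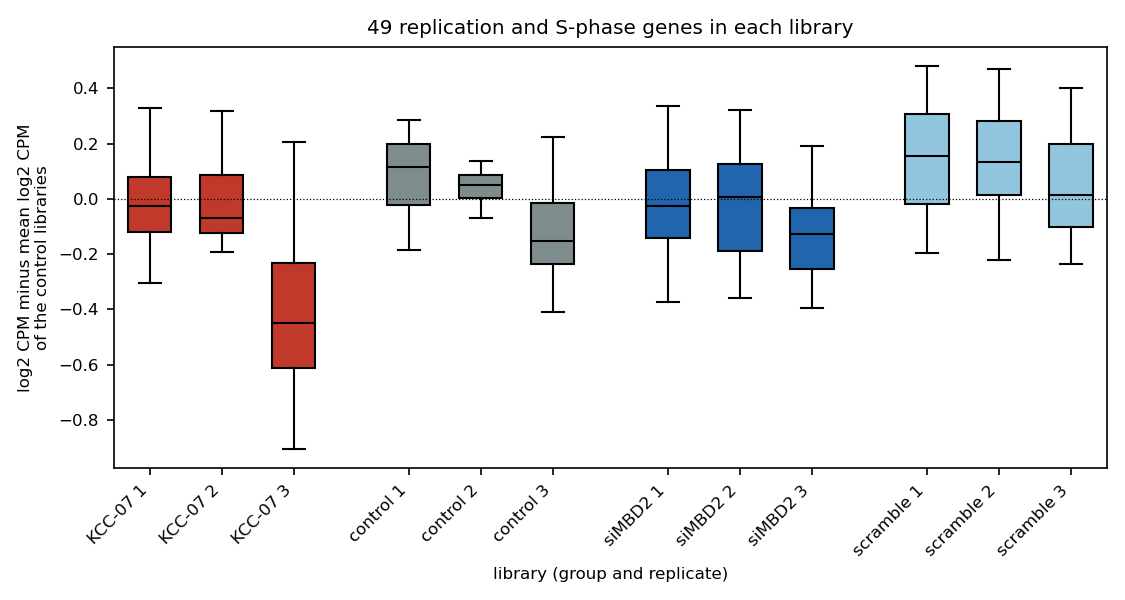
Log2 CPM of the 49 genes in each library (x axis) minus their mean log2 CPM over the 3 control libraries (y axis). Boxes span the quartiles with the median as a line, and whiskers reach the 5th and 95th percentiles. KCC-07 replicate 3 has the lowest median, -0.45, and the siMBD2 medians, from -0.13 to 0.01, lie below the scramble medians, from 0.02 to 0.15, in each same-numbered pair.

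With siMBD2 the same genes were mostly lower than with scramble siRNA, by small and even amounts. The log2 fold change was below 0 for 46 of the 49 genes, against 49% of all genes, and the median was -0.16, against a median near 0 for all genes. In 43 of the 49 genes (87.8%) each siMBD2 library was below its same-numbered scramble library, beside 25.1% of all genes, and in 32 (65.3%) all siMBD2 libraries were below all scramble libraries, beside 11.6% of all genes. None passed the adjusted threshold in edgeR, beside 0.0402% of all genes (6 genes, all lower, of which Mbd2 is 1), and 5 had an unadjusted p under 0.05, all lower, beside 2.66% of all genes. DESeq2 called 2 members, Rrm2 and Mcm3, as lower, beside 0.408% of all genes, and the fit with the replicate block called none, beside 0.75%. The fit of the siRNA libraries alone called the same pair as lower, beside 0.823% of all genes, and the fit without the replicate 3 libraries called Mcm3 as lower, beside 0.534%. The fit of the siRNA libraries alone with the block called 32 lower (65.3%), beside 10.2% of all genes lower and 9.6% higher. Fits of 6 libraries with the block have the fewest residual degrees of freedom of the edgeR fits. The pair medians of -0.16, -0.13 and -0.20 showed no pair far from the others. The scramble level was itself mostly above control, with 35 of the 49 estimates of scramble over control above 0. Summed over the 49 genes, levels were 5125 to 5637 CPM with siMBD2 and 6018 to 6478 CPM with scramble siRNA. In control the sums were 5368 to 6001 CPM, which overlapped those with siMBD2. The part of the scramble shift in the siMBD2 values was not tested.

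Mcm3, a subunit of the MCM ring, had the lowest estimate of the 49 genes with siMBD2, though it did not pass the test over all 12 libraries. It stood at 189, 191 and 160.5 CPM with siMBD2 and 313, 308 and 272 CPM with scramble siRNA, and the groups were far apart. Its log2 fold change was -0.73 (SE 0.193, adjusted p = 0.423), or 0.604-fold, and it was at -0.73, -0.69 and -0.76 in pairs 1, 2 and 3. The spread shared over all 12 libraries entered that test, and in KCC-07 cells Mcm3 varied from 132 to 258 CPM. The part of that spread in the adjusted p of Mcm3 was not tested. With the siRNA libraries alone its adjusted p was 0.0161, and without the replicate 3 libraries it was 0.00147. The other 5 MCM genes lay between -0.25 (Mcm6) and -0.15 (Mcm4), with Mcm2 at -0.24, Mcm5 at -0.19 and Mcm7 at -0.20. Rrm2, the regulated subunit of ribonucleotide reductase, stood at 219, 235 and 225 CPM with siMBD2 and 288, 281 and 306 CPM with scramble siRNA. Its groups did not overlap, and the log2 fold change was -0.37 (SE 0.0787, adjusted p = 0.197), with an adjusted p of 0.00161 in DESeq2 and 0.0228 with the siRNA libraries alone.

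The remaining genes lay between -0.31 and 0.12 with siMBD2, and none of the genes named next passed the test. The S-phase regulators were all lower in each siMBD2 library than in any scramble library. E2f2 stood at 18.7, 18.4 and 15.6 CPM with siMBD2 and 23.4, 22.3 and 19.4 CPM with scramble siRNA, at -0.31 (SE 0.127, adjusted p = 0.866). E2f1 stood at 115, 118 and 106 CPM with siMBD2 and 140.0, 141 and 122 CPM with scramble siRNA, at -0.25 (SE 0.110, adjusted p = 0.892), while Ccne1 was at -0.27 and Ccne2 at -0.17. Cdt1 stood at 79.7, 81.8 and 74.9 CPM with siMBD2 and 96.5, 99.9 and 91.3 CPM with scramble siRNA, non-overlapping groups, at -0.28 (SE 0.119, adjusted p = 0.866). Gins1 stood at 35.7, 33.8 and 32.9 CPM with siMBD2 and 40.2, 42.2 and 38.6 CPM with scramble siRNA, again without overlap, at -0.24 (SE 0.188, adjusted p = 1.00). These values put the regulators, a licensing factor and a helicase activator on the same side of scramble. Gins3, Gins4 and Rpa3 were the 3 genes with estimates above 0, at 0.01, 0.10 and 0.12. Of the other roles, the gene with the smallest p was Rfc1 in the clamp loader, at 152, 156 and 143 CPM with siMBD2 and 166, 166 and 166 CPM with scramble siRNA, with a log2 fold change of -0.15 (SE 0.0738, adjusted p = 1.00). Pola2, the regulatory subunit of polymerase alpha, stood at 63.0, 72.1 and 64.7 CPM with siMBD2 and 78.7, 73.4 and 71.7 CPM with scramble siRNA, overlapping through siMBD2 replicate 2, at -0.16 (SE 0.0825, adjusted p = 1.00). Rpa1 stood at 205, 206 and 195 CPM with siMBD2 and 232, 229 and 224 CPM with scramble siRNA, at -0.17 (SE 0.0990, adjusted p = 1.00), and Chaf1a at 175, 168 and 162 CPM with siMBD2 and 190.0, 188 and 179.9 CPM with scramble siRNA, at -0.15 (SE 0.135, adjusted p = 1.00). Neither gene's groups overlapped. The genes that passed as lower with the block in the KCC-07 arm were here between -0.21 (Rfc4) and -0.09 (Orc6), leaving out Gins1, and thymidine kinase Tk1 was at -0.25.

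E2f2 was the member whose response to KCC-07 differed from its response to siMBD2. The difference between the effects was 1.02 on the log2 scale (SE 0.179, adjusted p = 0.0334 in edgeR), 1 of 49 members with a positive difference past the threshold beside 0.482% of all genes. With the replicate block 3 members passed with positive differences, E2f1, E2f2 and Cdt1, beside 4.65% of all genes, and DESeq2 called E2f1, E2f2 and Rrm2, beside 2.7%. Without the replicate 3 libraries Chaf1a, Cdt1, E2f1, E2f2, Fen1 and Mcm3 passed with positive differences, beside 6.77% of all genes, and Rpa3 with a negative one, beside 3.8%. E2f2 was higher with KCC-07 than in control and below scramble with siMBD2, as the values above show. For E2f1 the difference was 0.77 (SE 0.155, adjusted p = 0.0521), with an adjusted p of 0.0161 with the replicate block. For Cdt1 it was 0.43 (SE 0.169, adjusted p = 0.265), with 0.0293 with the block. Cdt1 itself stood at 104, 95.5 and 84.3 CPM with KCC-07 and 97.2, 88.4 and 69.9 CPM in control, each treated library above its same-numbered control. The E2f2 call was kept in 2 of 12 fits that left out 1 library each, those without control replicate 3 and without KCC-07 replicate 3, and in the other 10 its adjusted p was at most 0.127.

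Cells with scramble siRNA differed from control in 7 of the 49 genes, in a comparison that shares its control libraries with the KCC-07 one. There were 5 higher members, beside 4.71% of all genes, and 2 lower members, beside 4.08%. Of the 49 estimates 35 were above 0, against 7004 of 14935 genes. The members' median was 0.09, against -0.03 for all genes. Without the replicate 3 libraries 15 were higher and 7 lower, beside 21.6% and 19.6% of all genes, and with the 6 libraries of this comparison alone and the block none was called, beside 2.17% of all genes. Ccne2 stood at 74.5, 76.6 and 74.1 CPM with scramble siRNA and 44.9, 40.1 and 55.3 CPM in control, at 0.68 (SE 0.124, adjusted p = 0.00933). E2f2 gave 0.67 (SE 0.127, adjusted p = 0.0107), Ccne1 0.60 (SE 0.152, adjusted p = 0.0339), E2f1 0.39 (SE 0.110, adjusted p = 0.0471) and Rrm2 0.33 (SE 0.0787, adjusted p = 0.0260). The 2 lower genes were Tk1, at 306, 287 and 276 CPM with scramble siRNA and 412, 438 and 360.0 CPM in control and -0.48 (SE 0.117, adjusted p = 0.0296), and Gins4, at -0.49 (SE 0.130, adjusted p = 0.0402). Without control replicate 3 alone 6 members were higher and 3 lower, beside 10.9% and 9.49% of all genes. Without scramble replicate 1 or 2 a single member was called, beside 1.91% and 2.27% of all genes. Without scramble replicate 3, control replicate 1 or control replicate 2 there were 2, 2 and 3 calls, beside 3.67%, 4.05% and 3.67% of all genes. Except for Ccne2, each of these calls was lost without 1 or more single libraries: E2f2 without scramble replicate 1 or 2, and the other 5 in 5 of 6 such fits. E2f2 stood at 17.6 CPM with siMBD2 on average and 21.7 CPM with scramble siRNA, while the control average was 13.7 CPM. Whether the 2 arms were grown side by side is not given in the sources used here, so transfection and arm cannot be told apart.

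In 4 lists of other cell-cycle genes, calls with KCC-07 stood beside 3.58% of all genes higher and 2.08% lower, or 12.8% higher and 9% lower with the block. Of 44 further replication genes, 0 were higher and 1 was lower, Dctpp1, another dNTP pyrophosphatase, at 38.7, 40.3 and 32.5 CPM with KCC-07 and 64.6, 53.6 and 43.7 CPM in control and -0.54 (SE 0.139, adjusted p = 0.0460). With the block 3 were higher and 8 lower, among them Rnaseh2b, a ribonuclease H2 subunit, at -0.69, and Mtbp, a partner of Treslin, at 0.33. Of 17 further E2F, RB and CDK2 genes, E2f6, a repressor E2F, was higher at 0.45 (SE 0.0947, adjusted p = 0.0204), and cyclin A (Ccna2), which drives S phase and G2, was lower in the same fit, at -0.49 (SE 0.117, adjusted p = 0.0339). Among 37 mitosis genes, Anln and Nek2 were higher, at 0.43 and 0.46, and Pttg1 (securin) was lower, at -0.49, with a list median of -0.13, and with the block 2 mitosis genes were higher and 8 lower. The E2F, RB and CDK2 list held 2 higher and 2 lower genes with the block. Of the 11 tested D cyclins, their kinases and CDK inhibitors, Cdk4 stood at 189, 182 and 154 CPM with KCC-07 and 288, 265 and 241 CPM in control, at -0.60 (SE 0.0945, adjusted p = 0.00765). Ccnd1 stood at 739, 675 and 664 CPM with KCC-07 and 515, 522 and 567 CPM in control, at 0.37 (SE 0.0814, adjusted p = 0.0232). The inhibitors Cdkn1a and Cdkn2b passed with the block only, at 0.87 and 1.04 (adjusted p with the block 0.00123 and 0.0375). With siMBD2 none of these 4 lists held a call in the fit without the block, beside 0.0402% of all genes, and with the block Cdk6 passed as lower, at -0.38 (adjusted p with the block 0.0424), beside 0.75% of all genes. With the siRNA libraries alone and the block, 16 further replication genes, 4 E2F, RB and CDK2 genes, 11 mitosis genes and 4 of the D cyclin list were lower, and 2, 1, 0 and 2 were higher. In that fit 10.2% of all genes were lower and 1353 of 14097 genes were higher. The medians of these 4 lists over all 12 libraries were -0.08, -0.07, -0.07 and -0.05.

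Marker levels moved with the treatment beside these values. Of the 8 epithelial markers, Epcam, Cdh1, Krt18 and Cldn7 were higher with KCC-07, at 0.45, 0.39, 0.43 and 1.78, beside 3.58% of all genes higher. The other 4 had estimates below 0 and did not pass. Krt8 averaged 455 ± 103 CPM with KCC-07 and 510.0 ± 61.1 CPM in control, Krt14 366 ± 133 CPM with KCC-07 and 442 ± 46.9 CPM in control, Krt5 4.91 ± 4.50 CPM with KCC-07 and 13.4 ± 15.5 CPM in control and Elf5 48.5 ± 13.3 CPM with KCC-07 and 58.3 ± 7.27 CPM in control (SD, n = 3 each). Of the 8 fibroblast markers 4 were tested and none passed, though Pdgfrb and Col1a1 passed as lower with the block, beside 9% of all genes. The fibroblast list summed to 106 to 163 CPM with KCC-07 and 190.3 to 221.5 CPM in control, mostly Pdgfra and Col1a1. Of the 8 macrophage and leukocyte markers 2 were tested, Cd68 and Csf1r. Cd68 passed as higher with the block only, beside 12.8% of all genes. The macrophage and leukocyte list summed to 7.61 to 9.60 CPM with KCC-07 and 3.15 to 5.27 CPM in control. The part of these shifts in the replication genes' values was not tested. With siMBD2 no marker passed, and the fibroblast markers summed to 138 to 157 CPM with siMBD2 and 139 to 142 CPM with scramble siRNA.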

How the data were processed

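Total RNA was extracted with a column kit, and the libraries, of polyA RNA, were read on a NovaSeq X instrument, per the labels. The authors deposited whole-number read counts per gene with no normalization. The submitters' processing notes list DRAGEN, DESeq2 1.44.0 and the build mm10 (GRCm38.p6). The strand setting and the handling of multi-mapped reads are not given in the sources used here. Columns were matched to libraries by library name.

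Genes were kept with filterByExpr of edgeR 4.0.16 (minimum count 10, minimum total 15), leaving 14935 of 55335. R 4.3.3 ran the quasi-likelihood test (glmQLFit, glmQLFTest) on TMM-scaled counts, with a mean for each group and 8 residual degrees of freedom across the 12 libraries. P-values were adjusted by Benjamini-Hochberg over all genes tested, with a threshold of 0.05. To obtain each SE, the size of the log2 fold change was divided by the root of F. The difference of effects is a contrast in the same fit, and replicate 3 was tested with a term of its own beside the groups (7 residual degrees of freedom). P-values measure the spread between libraries called biological replicates by the labels. Exact permutation of 3 against 3 libraries gives no p below 0.1 and was not used.

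The labels' batch tag numbers the replicates. Deviations from the group means correlated, across genes, at r = 0.35, 0.37 and 0.55 between same-numbered KCC-07 and control libraries. Between same-numbered siMBD2 and scramble libraries r was 0.25, 0.31 and 0.62. Replicates 1 and 2 correlated similarly across numbers, at 0.24 and 0.36 in the KCC-07 arm and at 0.32 and 0.35 in the siRNA arm. Replicate 3 correlated with the other numbers at -0.49 to -0.36 in these arms. Only replicate 3 was thus set apart by number, and a match of replicates 1 and 2 by number is not shown. The replicate block within each arm (4 residual degrees of freedom) is given where it changes a call. Between scramble and control libraries r was 0.10, 0.03 and 0.18, and the block for that comparison was shared by all groups (6 residual degrees of freedom). No replicates of a group held identical counts or differed only by sampling noise.

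Alternatives were DESeq2 size factors, library totals, no filter, a filter of 1 CPM in 3 libraries, the block, the libraries of a comparison alone with and without the block, the Wald test of DESeq2 1.42.0, leaving out the replicate 3 libraries, and leaving out each library in turn. Positions came from GENCODE M21, in which 54587 identifiers were found. A copy was near-identical from 95% identity across 50% of a transcript. Levels per kilobase used the transcript with the longest coding sequence, and promoter windows are RefSeq's. The fit was tested on simulated data with the same dispersion for every gene and no replicate effect. That test therefore cannot speak to the differences of replicate 3 in these libraries. Values in every library are given for genes past the threshold with or without the block for KCC-07, siMBD2 or their difference, and for the gene of each role with the smallest p. The genes, the lists and this rule were chosen with earlier results of these data known.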

Additional observations from a re-analysis of the deposited data

Results flagged for a closer look

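The effects of KCC-07 and siMBD2 on E2f2 differed by 1.02 on the log2 scale in a test of the difference itself (SE 0.179, adjusted p = 0.0334, edgeR). The call was lost in 10 of 12 fits that left out 1 library each, with an adjusted p of up to 0.127. E2f2 averaged 22.4 ± 1.78 CPM with KCC-07 and 13.7 ± 1.46 CPM in control, and it averaged 17.6 ± 1.74 CPM with siMBD2 and 21.7 ± 2.04 CPM with scramble siRNA (SD, n = 3 each). All 3 KCC-07 libraries were above all control libraries, and all 3 siMBD2 libraries were below all scramble libraries. The scramble level, to which the siMBD2 level is compared, was itself above control by 0.67 on the log2 scale.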

How the results depend on the processing

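For KCC-07 over control, 2 members were called, beside 5.65% of all genes. With the replicate block 12 were called, beside 12.8% of all genes higher and 9% lower. With those 6 libraries alone 0 were called, beside 0.00688%, and with the 6 libraries and the block 1, higher, beside 2.27%. Without the libraries of replicate 3 there were 13, beside 15.1% of all genes higher and 10.5% lower, and the median was -0.0704. Leaving out 1 library gave 1 to 8 calls and medians of -0.26 to -0.0186. For siMBD2 over scramble, 0 were called, beside 0.0402% of all genes, and 0 with the replicate block, beside 0.75%. With those 6 libraries alone 2 were lower, beside 0.823%, and with the 6 libraries and the block 32 were lower, beside 10.2%. DESeq2 called 2 lower, beside 0.408%, and the fit without replicate 3 called 1 lower, beside 0.534%. Without any single library 0 were called. For the difference of effects, 1 was called, positive, beside 0.482% of all genes. There were 2 without a filter and 2 with the filter of 1 CPM in 3 libraries, whose shares of all genes are not given here. With the replicate block there were 3, positive, beside 4.65%, and with DESeq2 3, positive, beside 2.7%. Without replicate 3 there were 7, beside 6.77% of all genes with positive differences and 3.8% with negative ones. The median without replicate 3 was 0.0575. Leaving out 1 library gave 0 to 2 calls and medians of -0.10 to 0.11. For scramble over control, 7 were called, beside 4.71% of all genes higher and 4.08% lower. With the replicate block 8 were called, beside 1103 of 14935 genes higher and 959 lower. With those 6 libraries alone and the block 0 were called, beside 2.17% of all genes. Without replicate 3 there were 22, beside 21.6% of all genes higher and 19.6% lower. Leaving out 1 library gave 1 to 9 calls, with the shares of all genes given above. For the genes past the threshold with or without the block, 268 values under alternatives kept their direction and side of the threshold, 55 no longer passed, 34 newly passed and none turned its sign; the cause was not tested. Over all 49 genes, the sign turned under at least 1 alternative for 15 with KCC-07, 2 with siMBD2, 24 in the difference and 12 for scramble over control, none of them past the threshold over all 12 libraries. The alternatives not named here left these counts and medians within 1.5 times the count or 1 SD of the median. With 3 libraries a group the fits have few degrees of freedom, while depth limits the members little, since each had at least 346 counts in every library.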
